A study of Mus musculus with 4 samples.

Results

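The nuclear genes of oxidative phosphorylation were examined in medullary thymic epithelial cells (mTECs), the stromal cells of the thymic medulla that display tissue-restricted antigens to developing T cells. Members were the rows of the count table whose symbol begins with *Nduf*, *Uqcr* or *Atp5*, begins with *Cox* and a digit from 4 to 8, or is *Sdha*, *Sdhb*, *Sdhc* or *Sdhd*. This rule found 90 of 23337 gene symbols, and it used no measured value. Of the 90 genes, 41 belong to complex I, 4 to complex II, 8 to complex III, 20 to complex IV and 16 to complex V. They include 83 subunits, 5 assembly factors of complex I (*Ndufaf1*, *Ndufaf2*, *Ndufaf3*, *Ndufaf4* and *Atp5sl*) and *Atp5s*, a coupling factor-like gene of complex V. The rule also took in *Cox4nb*, which shares only its name with cytochrome c oxidase and encodes a component of the membrane protein complex of the endoplasmic reticulum.

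mTECs had been sorted from thymi of 4-week-old C57BL/6 mice as CD45- EpCAM+ UEA-1+ Ly51- cells, and RNA was sequenced from 2 samples of each of 2 groups. The WT group came from mice without *Foxn1*-Cre. The *Sirt6* cKO group carried *Foxn1*-Cre with *Sirt6* loxp/loxp alleles, and the labels give its genotype as Sirt6-/-. *Foxn1* drives Cre in thymic epithelium, cortical as well as medullary, so the deletion is not particular to mTECs. The study describes the samples of a group as independent and parallel, but the number of mice behind each sample, and whether the WT mice carried floxed alleles, are not given in the sources used here. P-values therefore measure the spread between these samples.

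Oxidative phosphorylation joins electron transport to ATP synthesis in the inner mitochondrial membrane. Complex I takes electrons from NADH and complex II takes them from succinate, complex III passes them to cytochrome c, complex IV hands them to oxygen, and complex V uses the resulting proton gradient to make ATP. Most subunits are encoded in the nucleus, while mitochondrial DNA encodes central subunits of complexes I, III, IV and V. SIRT6 is a nuclear NAD-dependent deacetylase and is known as a repressor of glycolytic genes in other tissues. Of the 13 subunits encoded by mitochondrial DNA, 0 were rows of the count table, and they were not analysed here.

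The libraries held between 61102704 and 65907745 counts. Counts of *Sirt6* were 622 and 755 in WT and 882 and 835 in *Sirt6* cKO, with a log2 fold change of 0.37 (SE 0.32, adjusted p = 0.80 by the quasi-likelihood test of edgeR). The libraries labelled *Sirt6* cKO thus showed no drop of the targeted gene, and they are called the cKO-labelled libraries below. A count over the whole gene does not separate deleted exons from the rest, so each direction rests on the labels. By other assays the study reports that *Sirt6* was inactivated. These were quantitative PCR of sorted mTECs and a western blot of cultured thymic epithelial cells. The summed TPM, a transcript level scaled to length and depth, of 14 medullary epithelium markers was 25884 and 29337 in WT and 26425 and 26912 in the cKO-labelled libraries, and 0 of these markers were at 0. *H2-Aa*, at 14864 to 16768 TPM, makes up most of this sum. The study also measured MHC class II, to which *H2-Aa* belongs, on cortical epithelial cells. It used KRT8 staining to mark the cortex, and *Krt8* had 2049 to 3195 TPM. The sum is therefore not particular to the medulla. Of the 14 markers, *Cd80*, *Aire* and *Epcam* were higher and *Ccl21a* lower at an unadjusted p of 0.05, with 0 past the adjusted test, and the median log2 fold change was 0.32. By edgeR's test 3.32% of all genes tested were lower and 5.27% higher at that p, the shares to set beside each marker list here. *Cd80*, a costimulatory molecule of mature mTECs, had 87.8 and 92.1 TPM in WT and 158 and 186 TPM in the cKO-labelled libraries, and *Ccl21a*, a chemokine of another mTEC subset, had 1258 and 3154 TPM in WT and 346 and 497 TPM. Values of 4 libraries are always given with the WT pair first, each pair by number. Markers of other cells were also present. Those of macrophages and dendritic cells summed to 11474, 6809, 4219 and 4512 TPM, with 9 of 11 lower in the cKO-labelled libraries and 6 past an unadjusted p of 0.05. Thymocyte markers summed to 1674, 1209, 1470 and 882 TPM and tuft cell markers, of a specialised medullary epithelial cell, to 266, 304, 152 and 143 TPM. Of the 8 tuft cell markers 6 were lower, 5 of them at an unadjusted p of 0.05. The 2 higher ones were *Pou2f3* (33.0, 39.1, 45.7 and 38.9 TPM) and *Dclk1* (6.17, 11.1, 10.3 and 11.6 TPM). The part of these cells in the results below was not tested, and in bulk RNA fewer cells of a type and less RNA per cell cannot be told apart.

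Oxidative phosphorylation genes were expressed in every library, and together they held 1.18%, 1.22%, 1.13% and 1.08% of all TPM. The most abundant was *Atp5b*, the catalytic beta subunit of the ATP synthase, with 2157, 2242, 2538 and 2360 TPM, which ranked 30 among all genes by mean TPM. *Uqcrc1*, a core protein of complex III, followed with a mean of 986 TPM. *Sdhd*, a membrane anchor of complex II, *Atp5c1*, the central stalk subunit of the ATP synthase, and *Cox7a2l*, a factor in the assembly of supercomplexes, had means of 560, 559 and 543 TPM, which lie within the spread of their libraries. At the other end stood isoforms of complex IV known from heart, muscle or testis. *Cox7b2*, *Cox7a1*, *Cox8b* and *Cox8c* had means of 0.124, 0.153, 0.412 and 0.760 TPM, and *Cox6b2* had 1.14 TPM. *Cox8c* had 42 counts in WT 2 and 0 in the other 3 libraries.

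**Figure D1:**
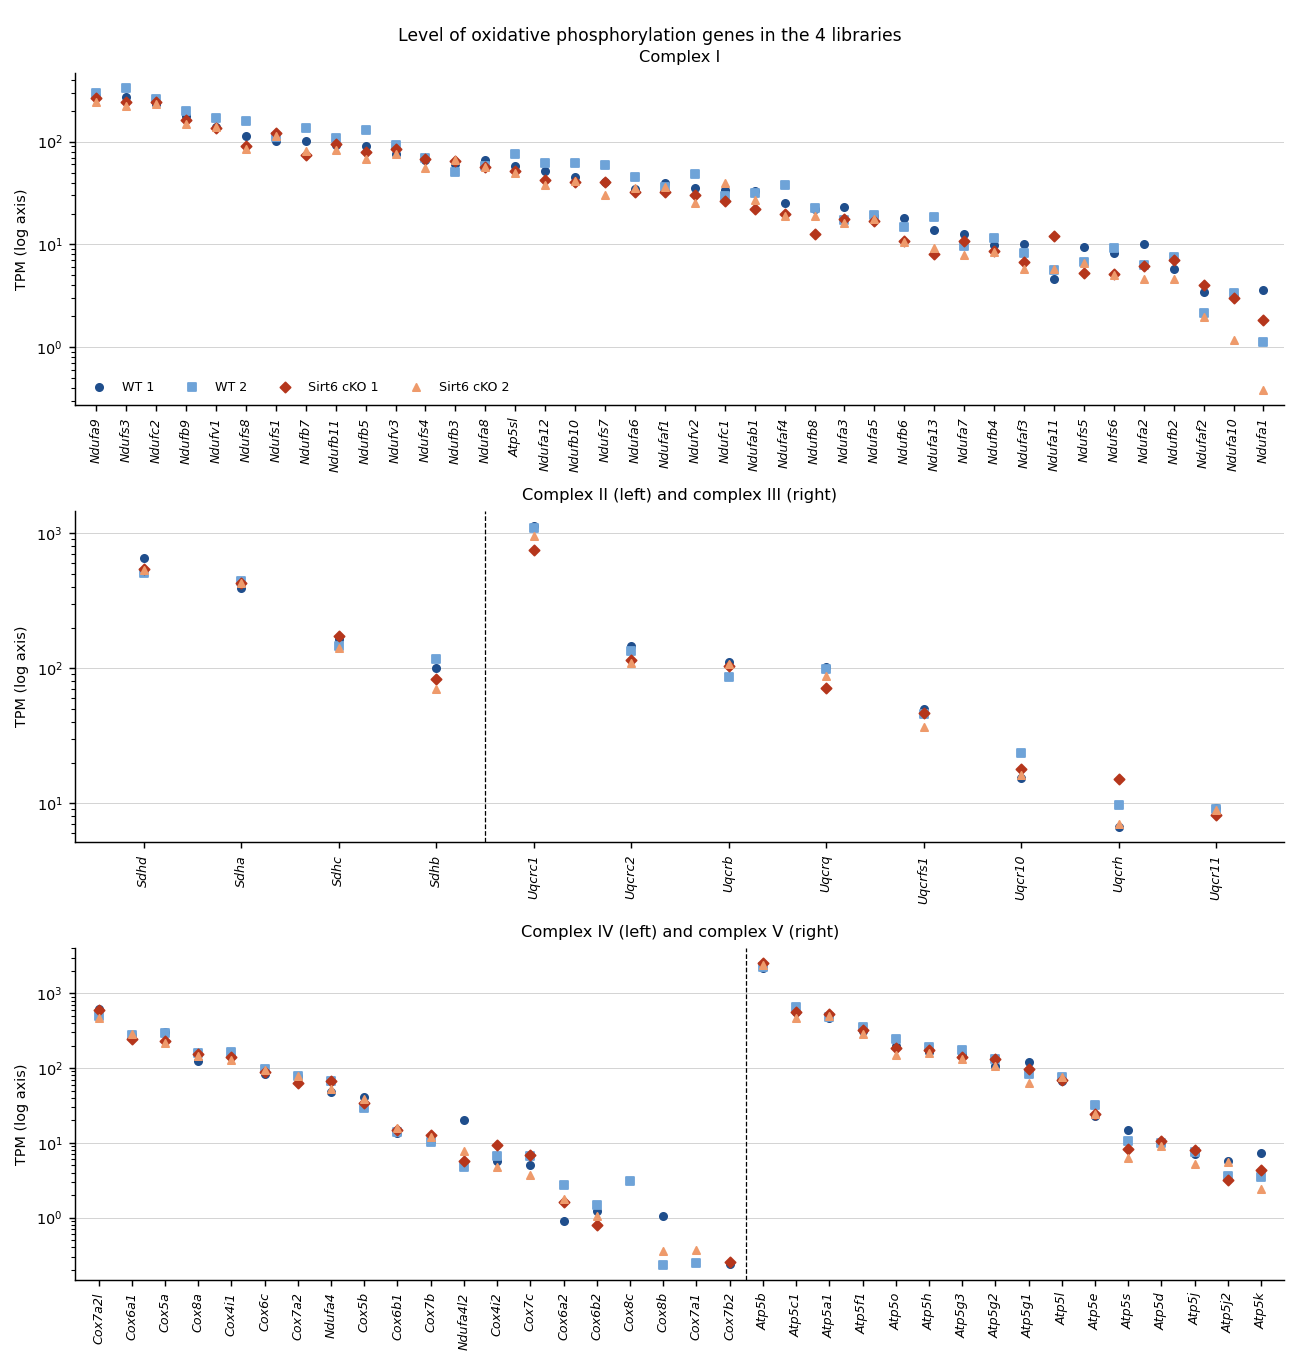
TPM of 88 of the 89 genes assigned to a complex, on a log axis, with 1 symbol per library and genes ordered by mean TPM within each complex; values of 0 are not drawn. The 4 libraries lie close together for abundant genes such as *Atp5b* (2157 to 2538 TPM) and far apart for rare ones such as *Ndufa1* (0.386 to 3.61 TPM).

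No oxidative phosphorylation gene passed the test, yet most lay somewhat lower in the cKO-labelled libraries. Of the 90 genes, 86 passed the filter on low counts; *Cox7a1*, *Cox7b2*, *Cox8b* and *Cox8c* did not. By edgeR's quasi-likelihood test, 0 of 86 were lower and 0 were higher at an unadjusted p of 0.05, where 3.32% of all genes tested were lower and 5.27% higher, 8.58% in all. After adjustment over all 18547 genes tested, 0 of the 86 passed (0.00539% of all genes), and DESeq2 gave 0 (1.83%). At the unadjusted p DESeq2 gave 2 lower genes (4.38% of all genes) and 0 higher ones (5.8%), and the number of lower genes was 0 without a filter on low counts (2.94%), 1 with the authors' filter on TPM (3.91%), 3 with the upper quartile (4.31%) and 4 with library size alone (4.51%) as the scaling. It was 6 with limma on log2(TPM + 1) (4.71%), 6 on log2(TPM + 0.1) (4.55%) and 0 with a replicate block (2.42%). It was 2 without WT 1 (3.44%), 1 without WT 2 (2.6%), 0 without *Sirt6* cKO 1 (1.61%) and 1 without *Sirt6* cKO 2 (4.26%). Fold changes were below 0 for 64 genes and above 0 for 22, with a median log2 fold change of -0.17, beside -0.0047 over all genes tested, of which 50.4% were below 0. With the upper quartile or library size alone as the scaling, 73 and 74 of the 86 genes were below 0, and the median of all genes moved to -0.09 in both. Standard errors ran from 0.13 for *Atp5b* to 1.57 for *Ndufa1*, and the 95% interval lay within a 2-fold change for 39 of the 86 genes.

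Both cKO-labelled libraries were below both WT libraries for 35 genes and above both for 7, where 20.3% and 21.6% of all genes tested did so. The 35 lower genes comprised 24 of complex I, 1 of complex II, 3 of complex III, 3 of complex IV and 4 of complex V. The 7 higher genes were *Atp5b*, *Atp5a1*, *Ndufs1*, *Ndufb3*, *Ndufa11*, *Cox6b1* and *Cox7b*. With library size alone as the scaling, 47 genes were lower and 4 higher in this sense. That scaling also put 56.7% of all genes tested below 0, beside 50.4% in the reported fit. The share of all genes without overlap under it is not given. With 1 library left out, 46 of the 86 genes were lower in each of the 4 fits and 7 were higher in each, where 26.8% and 27.5% of all genes were so. The fold change of 68 of the 86 genes changed sign or moved by over 1.5 times in at least 1 of these fits, and that of 33 changed sign.

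**Figure D2:**
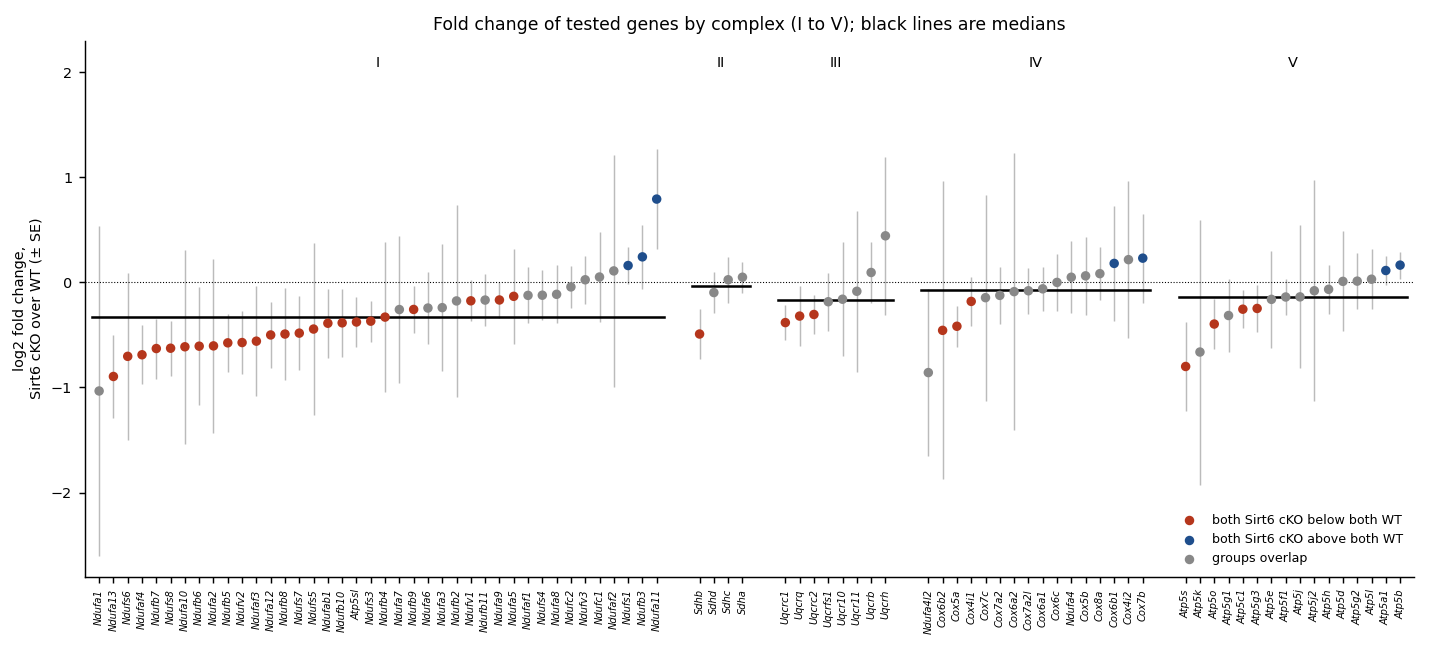
Log2 fold change of 84 of the 85 tested genes of complexes I to V, cKO-labelled libraries over WT, with bars of 1 standard error and black lines at the median over all tested genes of each complex. The median was -0.33 in complex I, -0.04 in complex II, -0.17 in complex III, -0.07 in complex IV and -0.14 in complex V.

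In the classes of transcript length up to 2500 bases, all genes tested leaned towards lower values as well. Among those over 30 TPM this lean was absent under 600 bases and slight from 1500 to 2500 bases. Transcript length was taken as the ratio of deposited count to deposited TPM, scaled to annotated transcripts. Over all genes tested the median log2 fold change was -0.10 for genes under 600 bases, -0.28 from 600 to 1000 bases, -0.22 from 1000 to 1500 bases, -0.07 from 1500 to 2500 bases and 0.13 above that. The median of the oxidative phosphorylation genes in the same classes was -0.16 (33 genes), -0.25 (23 genes), -0.18 (16 genes), -0.18 (9 genes) and 0.16 (5 genes). From 600 to 1000 bases, 11 of 23 oxidative phosphorylation genes (47.8%) were lower without overlap, beside 36.2% of 1380 genes of that length and 52.2% of the 408 such genes over 30 TPM. Under 600 bases, 72.7% of the oxidative phosphorylation genes were below 0, beside 55.4% of 451 genes of that length. It was 49.5% of the 93 such genes over 30 TPM, whose median was 0.030. In this class 10 of 33 oxidative phosphorylation genes (30.3%) were lower without overlap, beside 24.8% of all genes and 26.9% of those over 30 TPM. From 1500 to 2500 bases 5 of 9 (55.6%) were, beside 23.0% of all genes and 23.2% of the 1702 over 30 TPM, whose median was -0.024. From 1000 to 1500 bases it was 8 of 16, beside 32.3% of all genes and 40.9% of the 768 over 30 TPM. The oxidative phosphorylation genes themselves were not limited to those over 30 TPM. From 600 to 1000 bases the median deviation from each gene's mean over the libraries, in log2 CPM (counts scaled to library size), was 0.07, 0.17, -0.03 and -0.17 for oxidative phosphorylation genes and 0.16, 0.17, -0.07 and -0.15 for all genes tested. When each fold change was taken relative to the median of other genes of similar length, a step added after the data were seen, the median of the 86 genes was -0.02 and 46 lay below 0. This scale also moved genes that had not leaned: cytosolic ribosomal proteins went from 0.03 to 0.17, with 14 of 78 below 0.

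Complex I lay lower than the other complexes in this respect. Its median relative to genes of similar length was -0.14, with 28 of 41 below 0, while complex III lay at -0.03, complex II at 0.03, complex V at 0.03 and complex IV at 0.15. In the class under 600 bases, 13 of 15 complex I genes were below 0 (median -0.33), beside 55.4% of all genes of that length. From 600 to 1000 bases 10 of 11 were (-0.37), beside 70.0%, and from 1000 to 1500 bases 7 of 8 (-0.57), beside 66.5%. From 1500 to 2500 bases 4 of 4 were (-0.15), beside 56.1%, and above that 1 of 3 (0.16), beside 40.8%. Among genes over 30 TPM these shares were 49.5%, 79.4%, 71.9%, 52.8% and 33.0%. This difference between complexes was not tested, since the members share the same 4 libraries.

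**Figure D3:**
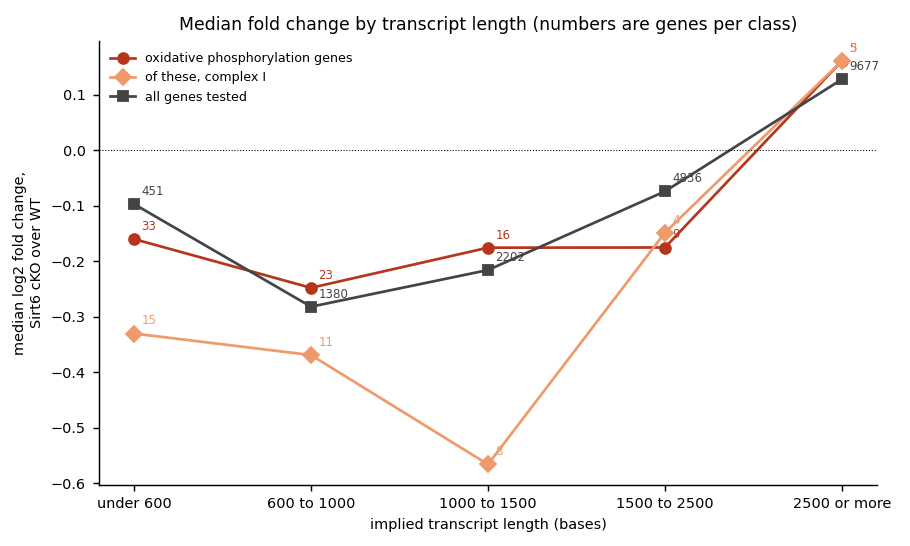
Median log2 fold change, cKO-labelled libraries over WT, in 5 classes of implied transcript length, for all 86 tested oxidative phosphorylation genes, for complex I alone and for all genes tested; numbers are genes per class. From 600 to 1000 bases the medians are -0.25 for oxidative phosphorylation genes, -0.37 for complex I and -0.28 for all genes tested, and complex I lies below both other lines up to 1500 bases.

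Complex I, which oxidises NADH, had the widest shift. Of its 41 genes 35 were below 0, and the median log2 fold change was -0.33. Its summed TPM was 2701 and 3038 in WT and 2469 and 2363 in the cKO-labelled libraries, so the groups did not overlap, and WT 2 stood highest. Without WT 2 the median of complex I was -0.22, and without another library it lay between -0.30 and -0.34.

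The core subunits of complex I carry the flavin and the iron-sulfur clusters along which electrons pass. *Ndufs8*, which holds a pair of iron-sulfur clusters, lies at chr19:3908863-3912774 (minus strand) of GRCm38. It had 114, 161, 90.4 and 85.6 TPM, with both cKO-labelled libraries below both WT libraries and WT 2 well above WT 1. Its log2 fold change was -0.63 (SE 0.26, adjusted p = 0.60 by edgeR's test), -0.86 without WT 1 and -0.38 without WT 2. DESeq2 gave -0.64 with an unadjusted p of 0.0337. *Ndufs7*, which holds the last cluster before ubiquinone, had 40.8, 59.1, 40.6 and 30.1 TPM (log2 fold change -0.48, SE 0.35), so that WT 1 and *Sirt6* cKO 1 were close to equal. *Ndufv2* of the NADH dehydrogenase module had 35.5, 48.3, 30.6 and 25.2 TPM (-0.57, SE 0.30). Its flavin-bearing partner *Ndufv1* differed less, with 140, 171, 135 and 138 TPM (-0.17, SE 0.20).

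A further pair of core subunits lay on opposite sides of 0. *Ndufs3* had 275, 330, 244 and 221 TPM (-0.37, SE 0.20). Of the 50-base words of its longest coding transcript, 35.8% recur in other genes, and the processed pseudogene *Gm12251* shares the most. *Ndufs1*, the largest subunit of the complex, had 102, 111, 121 and 113 TPM, higher in both cKO-labelled libraries by a small margin (0.16, SE 0.17, adjusted p = 0.86 by edgeR's test). Its exons overlap the antisense gene *Ino80dos* by 489 bases, and the counting is not stated to have used strand.

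Of the 29 supernumerary subunits of complex I, which surround the core, 25 were below 0, with a median of -0.26. *Ndufb7* of the membrane arm had 103, 137, 73.4 and 80.4 TPM, without overlap (-0.63, SE 0.29, adjusted p = 0.62 by edgeR's test). *Ndufa13*, also known as a gene of cell death (GRIM-19), had 13.7, 18.6, 8.02 and 9.19 TPM (-0.90, SE 0.39), and 375 bases of its exons overlap the antisense gene *Tssk6*. *Ndufb5* had 91.8, 129, 79.6 and 67.2 TPM (-0.58, SE 0.27), and 616 bases of its exons overlap the antisense gene *Mrpl47*. All 3 were lower in both cKO-labelled libraries, and WT 2 was the highest library for each.

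The extremes of complex I were rare transcripts with large errors. *Ndufa1* had 54, 16, 26 and 6 counts and a log2 fold change of -1.03 (SE 1.57), which turned to 0.03 without WT 1. *Ndufa11* had 4.66, 5.71, 12.1 and 5.75 TPM (0.79, SE 0.48), where *Sirt6* cKO 1 alone stood high and *Sirt6* cKO 2 was barely above WT 2. Without *Sirt6* cKO 1 its log2 fold change was 0.16. *Ndufb3* had 60.4, 50.4, 64.7 and 65.9 TPM (0.24, SE 0.30).

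Among assembly factors of complex I, *Ndufaf4* (chr4:24898083-24905001, plus strand) had the smallest p of all 86 genes. It had 25.3, 38.1, 19.9 and 19.1 TPM, without overlap, and its log2 fold change was -0.69 (SE 0.28, adjusted p = 0.59 by edgeR's test). It was -0.96 without WT 1 and -0.39 without WT 2. DESeq2 gave an unadjusted p of 0.0302. *Ndufaf3* (-0.56, SE 0.52) and *Atp5sl* (-0.38, SE 0.23) were also lower without overlap, while *Ndufaf1* (-0.12, SE 0.27) and *Ndufaf2* (0.11, SE 1.10) overlapped. The exons of *Ndufaf2* overlap the antisense gene *B230220B15Rik* by 1955 bases.

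Complex II links the tricarboxylic acid cycle to the chain, and 1 of its 4 subunits was lower without overlap. *Sdhb*, its iron-sulfur subunit (chr4:140961203-140979193, plus strand), had 101, 117, 83.5 and 70.2 TPM, without overlap (-0.49, SE 0.24, adjusted p = 0.64 by edgeR's test). *Sdha*, the flavoprotein that oxidises succinate, had 395, 445, 432 and 431 TPM (0.05, SE 0.14), and the anchors *Sdhc* (166, 147, 175 and 142 TPM) and *Sdhd* (654, 507, 546 and 535 TPM) overlapped between the groups. The 3 overlapping subunits were within 0.10 of 0 on the log2 scale.

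Complex III, the cytochrome bc1 complex, had a lower summed TPM in the cKO-labelled libraries, 1135 and 1325 against 1580 and 1505. *Uqcrc1* (chr9:108936633-108949623, plus strand) made up most of this difference. It had 1139, 1098, 756 and 951 TPM, with *Sirt6* cKO 1 lowest, and a log2 fold change of -0.38 (SE 0.17, adjusted p = 0.62 by edgeR's test), which was -0.23 without *Sirt6* cKO 1. The other core protein, *Uqcrc2*, had 146, 134, 116 and 109 TPM (-0.31, SE 0.19), also without overlap, as had *Uqcrq* (-0.32, SE 0.28). The exons of *Uqcrc2* overlap the antisense gene *Pdzd9* by 504 bases. *Uqcrfs1*, the Rieske iron-sulfur protein, had 49.96, 45.7, 46.7 and 37.1 TPM with overlap (-0.18, SE 0.28). *Uqcrh*, the hinge protein, had the highest value of the complex (0.44, SE 0.75) through *Sirt6* cKO 1, with 15.1 TPM beside 6.65, 9.78 and 7.02 in the others, and -0.21 without that library.

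Complex IV, cytochrome c oxidase, differed little. Of its 11 ubiquitous subunits 6 were below 0 and 5 above. *Cox5a* (chr9:57521274-57532426, plus strand), which sits on the matrix side, was among the lower ones, with 302, 298, 232 and 215 TPM, a narrow spread within each group and no overlap (-0.42, SE 0.19, adjusted p = 0.63 by edgeR's test), and 269 bases of its exons overlap the antisense gene *Gm26631*. With each library left out in turn its log2 fold change lay between -0.47 and -0.38. *Cox5b* had 40.6, 28.8, 34.1 and 38.1 TPM (0.06, SE 0.37), and 25.9% of the 50-base words of its longest coding transcript recur in other genes. *Cox6b1* (13.4, 13.8, 14.7 and 15.8 TPM) and *Cox7b* (10.7, 10.4, 12.5 and 12.1 TPM) were slightly higher in both cKO-labelled libraries, by 0.18 (SE 0.55) and 0.23 (SE 0.42).

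Several subunits of complex IV exist as paralogs with restricted expression, and the ubiquitous form prevailed in each pair. *Cox4i1* held 96.2%, 96.1%, 93.7% and 96.5% of the TPM of *Cox4i1* and *Cox4i2*, the hypoxia-related form. *Cox6a1* held at least 99.0% of its pair in each library, *Cox6a2* of heart and muscle the rest, and *Cox7a2* at least 99.5% over *Cox7a1*. *Cox8a* had 126, 160, 154 and 147 TPM and held at least 98.0% of its group. *Cox6b2*, a testis form, held 8.44% and 9.77% of its pair in WT and 5.08% and 6.14% in the cKO-labelled libraries, from about 1 TPM, so the groups did not overlap, but the log2 fold change of -0.46 had an SE of 1.42.

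The pair *Ndufa4* and *Ndufa4l2* varied widely between libraries. *Ndufa4*, a subunit of complex IV despite its name, had 48.0, 67.7, 66.2 and 52.5 TPM (0.05, SE 0.34). *Ndufa4l2*, known as a target of hypoxia-inducible factor, had 580, 130, 154 and 222 counts, or 29.3%, 6.52%, 8.002% and 13.01% of the TPM of the pair. WT 1 stood apart from the other 3 libraries. The log2 fold change of *Ndufa4l2* was -0.86 (SE 0.79), 0.53 without WT 1 and -1.56 without WT 2, so its direction rests on WT 1. WT 1 was also the library with the highest macrophage and dendritic cell markers; a part of these in the value was not tested.

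Complex V, the ATP synthase, held subunits on both sides of 0. In its catalytic head *Atp5b* was higher in both cKO-labelled libraries (0.16, SE 0.13, adjusted p = 0.77 by edgeR's test), and so was *Atp5a1*, the alpha subunit that alternates with it, with 471, 485, 524 and 503 TPM (0.11, SE 0.14). *Atp5c1* lay the other way, with 556, 660, 555 and 466 TPM (-0.26, SE 0.18), although WT 1 and *Sirt6* cKO 1 differed by less than 1 TPM. *Atp5d* and *Atp5e*, which complete the central stalk, overlapped (0.01, SE 0.48, and -0.16, SE 0.46). Of the 10 genes of the membrane part and the stalks 8 were below 0, with a median of -0.14. The median of the whole complex, also -0.14, was -0.064 without *Sirt6* cKO 2. Summed TPM of the complex was 4376, 4704, 4793 and 4354, with overlap between the groups.

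The c-ring of the ATP synthase, through which protons pass, is built of 1 mature protein encoded by 3 genes. *Atp5g1* had 119, 83.2, 97.9 and 63.8 TPM (-0.32, SE 0.35, but -0.038 without WT 1 and -0.049 without *Sirt6* cKO 2), *Atp5g2* had 106, 131, 132 and 105 TPM (0.01, SE 0.27) and *Atp5g3* had 153, 173, 139 and 134 TPM (-0.25, SE 0.22). *Atp5g3* gave the largest share in each library, between 37.7% and 44.8%, and *Atp5g1* ranged from 21.1% to 31.4%. The groups overlapped for *Atp5g1* and *Atp5g2* and did not for *Atp5g3*. At the margin of the complex, *Atp5s* had 14.6, 10.7, 8.22 and 6.22 TPM (-0.80, SE 0.42), and *Atp5k*, a small subunit of the membrane part, had -0.66 (SE 1.26). *Atp5l* shares 68.5% of its 50-base words with other genes, of which the processed pseudogene *Gm10221* shares the most, so its 67.4, 76.2, 69.0 and 76.7 TPM are uncertain.

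**Figure D4:**
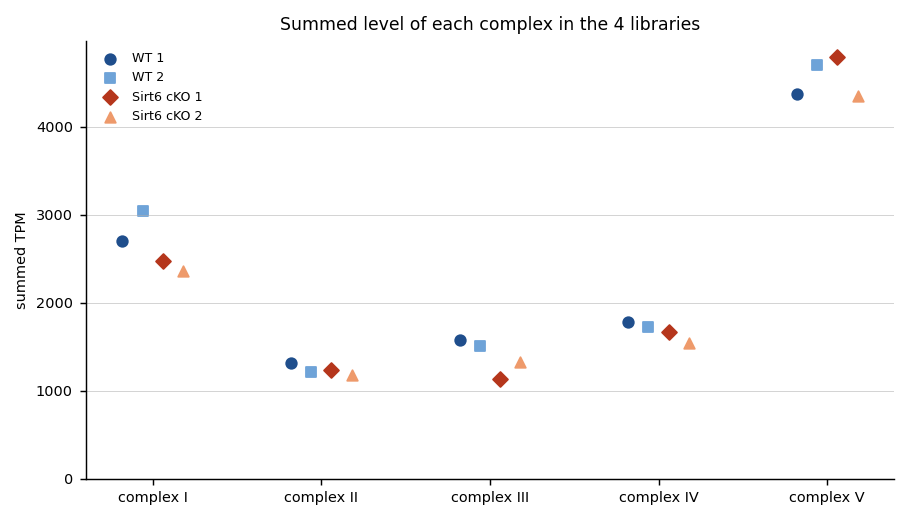
Summed TPM of each complex in the 4 libraries, on an axis that starts at 0. The groups do not overlap for complexes I, III and IV (1778 and 1721 in WT and 1667 and 1546 in the cKO-labelled libraries for complex IV), and they overlap for complexes II and V.

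Summed over all 90 genes, TPM was 11766 and 12203 in WT (11984 ± 309, SD, n = 2) and 11316 and 10789 in the cKO-labelled libraries (11053 ± 373, SD, n = 2). The groups did not overlap, and an exact two-sided permutation test gave p = 0.333, the smallest it can give with 2 libraries against 2. As a share of raw counts, which long transcripts weigh on, the genes held 0.765% in WT and 0.688% in the cKO-labelled libraries.

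Levels differed widely within each complex, and short transcripts had the lower TPM. Among 75 subunits other than restricted isoforms, the 32 with transcripts under 600 bases had a median of 18.5 TPM, the 19 from 600 to 1000 bases had 94.8 TPM, and the 24 of 1000 bases or more had 136 TPM. Cytosolic ribosomal proteins, another set of mostly short genes, had medians of 38.1, 52.9 and 86.0 TPM in the same classes, and all genes tested had 7.05, 7.44 and 11.3 TPM. *Ndufa1*, *Cox7c* and *Atp5k*, subunits of complexes I, IV and V with transcripts of 512, 459 and 300 bases, had means of 1.74, 5.57 and 4.397 TPM, whereas *Cox6a1*, with 539 bases, had 271 TPM. *Cox7c* shares 27.9% and *Cox6a1* 12.3% of their 50-base words with other genes. Whether length itself lowers TPM was not tested, so ranks between genes of unlike length are uncertain. Of the 90 genes, 19 share more than 10% of their 50-base words with other genes and 29 have exons that overlap an antisense gene, so reads of these could be split or joined. Not every such gene is marked where it is named.

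**Figure D5:**
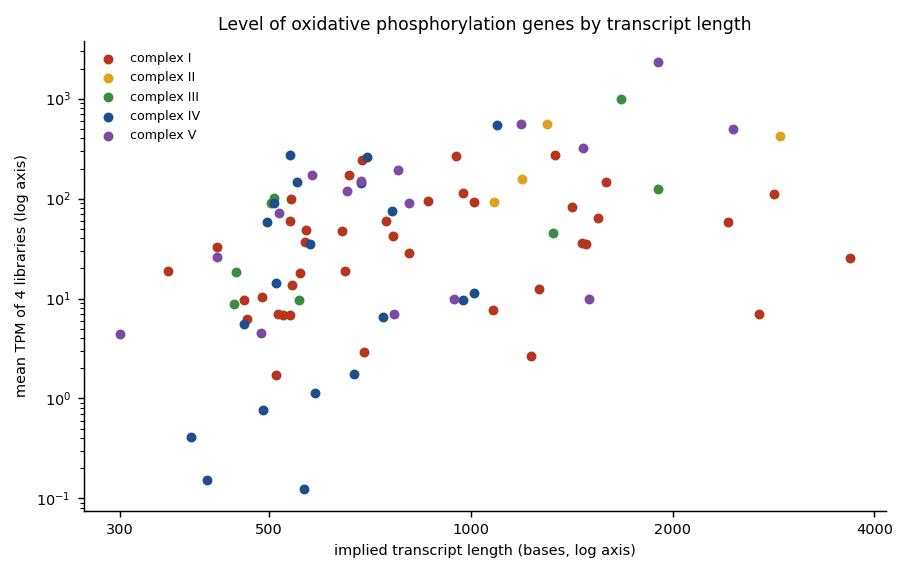
Mean TPM over the 4 libraries against implied transcript length for 88 of the 89 genes assigned to a complex, both on log axes. Genes under 600 bases reach from 0.124 TPM (*Cox7b2*) to 271 TPM (*Cox6a1*), and genes over 1500 bases reach 2324 TPM (*Atp5b*).

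Lists of other genes of energy metabolism and of ribosomal proteins were compared in the same fit. The 7 lists held 255 tested genes, of which 76 were of the mitochondrial and 78 of the cytosolic ribosome list. Of the 255, 7 (2.75%) were lower and 3 higher at an unadjusted p of 0.05, and 0 passed after adjustment. Of all genes tested 3.32% were lower and 5.27% higher. The 7 lower genes included 4 of the mitochondrial and 1 of the cytosolic ribosome list. Of 17 other respiratory chain genes, such as cytochrome c and the ADP/ATP carriers, 15 were below 0 with a median of -0.14 and 0 passed. *Slc25a5*, an ADP/ATP carrier, was lowest (137, 168, 123 and 86.3 TPM, -0.53, SE 0.26, and -0.31 without *Sirt6* cKO 2) and *Vdac1*, the outer membrane channel, was highest (0.20, SE 0.24). Of 28 assembly factors, with a median of -0.12, 1 was lower and 1 higher. *Nubpl*, which delivers iron-sulfur clusters to complex I, had 39.8 and 39.4 TPM in WT and 23.3 and 19.2 TPM in the cKO-labelled libraries (-0.89, SE 0.30, adjusted p = 0.55 by edgeR's test), and it missed this p with any 1 library left out. *Acad9*, an acyl-CoA dehydrogenase that assembles complex I, had 137 and 138 TPM in WT and 183 and 208 TPM in the cKO-labelled libraries (0.51, SE 0.16, adjusted p = 0.54 by edgeR's test) and kept its call only without *Sirt6* cKO 1. *Cox11* had the lowest value (-0.91, SE 0.72, and -0.19 without *Sirt6* cKO 1) through *Sirt6* cKO 1, with 4.94 TPM beside 21.7 to 30.7 in the others, and *Sco1* the highest (0.56, SE 0.32, and 0.21 without *Sirt6* cKO 1).

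Of 17 regulators of mitochondrial biogenesis 10 were above 0, with a median of 0.08, which was -0.075 without *Sirt6* cKO 1. *Polrmt*, the mitochondrial RNA polymerase, had 13.3, 15.7, 24.9 and 22.6 TPM (0.72, SE 0.25, adjusted p = 0.55 by edgeR's test), a call that was lost with any 1 library left out. *Ppargc1b*, a coactivator of mitochondrial genes, had 5.82, 12.1, 19.6 and 14.1 TPM (0.93, SE 0.43), and *Yy1*, a transcription factor, had 17.0, 13.9, 10.003 and 11.5 TPM (-0.51, SE 0.32). Neither passed the test. For *Ppargc1b* the log2 fold change was 0.48 without WT 1.

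In the tricarboxylic acid cycle, 10 of 21 genes were below 0 and the median was 0.0035. *Mdh2*, mitochondrial malate dehydrogenase, had 505, 593, 380 and 329 TPM (-0.62, SE 0.18, adjusted p = 0.54 by edgeR's test), a call that was lost without WT 2 and without *Sirt6* cKO 2. *Pcx*, pyruvate carboxylase, had the highest value (0.73, SE 0.31), which was 0.38 without WT 1 and 1.15 without WT 2. Of 18 glycolytic genes 7 were below 0 and the median was 0.08, which was -0.00078 without WT 2, -0.0055 with library size alone as the scaling and -0.061 relative to genes of similar length. *Eno2*, the neuronal enolase, had 33.2, 33.6, 61.3 and 59.1 TPM (0.86, SE 0.21, adjusted p = 0.54 by edgeR's test), and its call held with each library left out. *Aldoc* had the lowest value (-0.40, SE 0.45).

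The proteins of the mitochondrial ribosome, which translates the subunits encoded by mitochondrial DNA, lay mostly below 0. Of 76 genes 54 were, with a median of -0.26, which was -0.16 without *Sirt6* cKO 2. Of the 76, 35 (46.1%) were lower without overlap, where 20.3% of all genes tested were. From 600 to 1000 bases 14 of 25 were (56.0%), beside 36.2% of all genes of that length and 52.2% of those over 30 TPM. Under 600 bases it was 4 of 7 (57.1%), beside 24.8% and 26.9%. From 1000 to 1500 bases it was 10 of 22 (45.45%), beside 32.3% and 40.9%. From 1500 to 2500 bases it was 4 of 15 (26.7%), beside 23.0% and 23.2%. Above 2500 bases it was 3 of 7 (42.9%), beside 13.75% and 10.97%. Relative to genes of similar length the median was -0.07. An unadjusted p of 0.05 was passed by 4 of the 76 (5.26%), which were *Mrps11* (106 and 101 against 61.05 and 48.2 TPM, -0.91, SE 0.26), *Mrpl42* (-0.85, SE 0.30), *Mrps10* (-0.85, SE 0.32) and *Mrpl36* (-0.56, SE 0.22), all lower, of which *Mrpl36* lost its call with any 1 library left out. *Mrps11* lost it without *Sirt6* cKO 2, *Mrpl42* without each library but WT 1, and *Mrps10* without each library but *Sirt6* cKO 2. *Mrps2* had the highest value (1.73, SE 1.67), from 8 counts in WT 1 and 1246 to 2136 in the others, and lay at 0.72 without WT 1. Of the 78 tested genes of the cytosolic ribosome 38 were below 0, with a median of 0.03 that ran from -0.19 to 0.16 when a library of the *Sirt6* cKO pair was left out. The sole call was *Rps19bp1* (-0.99, SE 0.32), a binding protein rather than a ribosomal protein, which lost it without each library but *Sirt6* cKO 1. *Rpl38* was highest (0.90, SE 1.33).

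Nuclear respiratory genes are known to share promoter motifs for NRF1, ETS factors such as GABPA, YY1 and SP1. Promoters of 300 bases, from 250 before to 50 after the first listed start, were found for 74 of the 90 genes and 68 of the 83 subunits in RefSeq (GRCm38.p6). GCGCATG (NRF1) was present on either strand in 19.1% of the subunit promoters, beside 4.04% of 27025 promoters in the table and 5.77% of those of genes tested. CCGGAAG (ETS) was present in 22.1%, beside 9.12% and 13.7%, and GATGGCG (YY1) in 13.2%, beside 3.66% and 5.23%. GGGCGGG (SP1) was present in 33.8%, which lies between the 25.8% of all promoters and the 40.4% of genes tested. The NRF1 motif overlaps its own reverse complement in part, so that 1 stretch can hold it on both strands, as in *Cox6a1*.

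At least 1 kind of motif was found in 47 of the 74 promoters and at least 2 kinds in 16. By complex, the NRF1 motif was in 6 of 37 promoters of complex I, 1 of 3 of complex II, 2 of 5 of complex III, 2 of 14 of complex IV and 3 of 15 of complex V. The YY1 motif was in 7 of the 37 promoters of complex I. Only *Cox6a1*, *Ndufb6* and *Sdhb* held 3 or more kinds, and the 250 bases before their starts are shown for that reason, with the motifs in capitals: chr5:115348959-115349208 (minus strand) for *Cox6a1*, chr4:40279422-40279671 (minus strand) for *Ndufb6* and chr4:140961021-140961270 (plus strand) for *Sdhb*.
Cox6a1: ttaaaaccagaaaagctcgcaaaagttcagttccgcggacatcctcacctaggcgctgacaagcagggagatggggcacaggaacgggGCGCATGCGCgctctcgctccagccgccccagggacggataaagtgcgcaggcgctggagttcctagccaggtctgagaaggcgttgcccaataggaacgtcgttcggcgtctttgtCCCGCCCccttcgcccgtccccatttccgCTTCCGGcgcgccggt
Ndufb6: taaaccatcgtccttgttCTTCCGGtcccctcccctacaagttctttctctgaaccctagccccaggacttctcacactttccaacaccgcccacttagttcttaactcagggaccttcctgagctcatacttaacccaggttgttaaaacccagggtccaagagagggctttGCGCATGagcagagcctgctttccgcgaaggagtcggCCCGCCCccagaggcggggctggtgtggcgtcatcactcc
Sdhb: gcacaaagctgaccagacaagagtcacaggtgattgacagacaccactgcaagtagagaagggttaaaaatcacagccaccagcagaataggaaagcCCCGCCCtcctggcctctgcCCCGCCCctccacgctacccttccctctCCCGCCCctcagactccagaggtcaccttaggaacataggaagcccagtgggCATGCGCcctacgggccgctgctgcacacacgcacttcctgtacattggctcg
The YY1 motif of *Cox6a1* and the ETS motif of *Sdhb* lie after the start and are not shown. The 3 genes, which share these motifs, had fold changes whose errors overlap in part: *Cox6a1* had 275, 281, 246 and 284 TPM (-0.06, SE 0.21), *Ndufb6*, a membrane subunit of complex I, had 18.002, 14.8, 10.8 and 10.6 TPM (-0.61, SE 0.56), and *Sdhb* lay at -0.49. A match of letters is a description of the window and shows neither binding nor its absence.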

How the data were processed

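RNA of sorted mTECs was measured in 4 libraries, 2 of each group. The authors checked the reads with FastQC and removed adaptors with Trim Galore; HISAT2 2.1.0 then served for alignment to mm10 and StringTie 1.3.3 for quantification (versions from the submitters' processing notes), and they deposited 1 table of whole-number counts per gene, without normalization, and the TPM values of each library. The TPM files also hold a line of the column total, which was left out. The annotation and the use of strand are not given in the sources used here.

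The deposited counts, between 61102704 and 65907745 in each library, were tested with edgeR 4.0.16 in R 4.3.3 (TMM scaling, a minimum count of 10 and total of 15, quasi-likelihood test, no covariates), with Benjamini-Hochberg adjustment over 18547 genes. Fold changes are log2, *Sirt6* cKO over WT. The biological coefficient of variation was 0.557. Levels are TPM, and overlap between groups was read on CPM. Positions, antisense overlaps and shared 50-base words came from GENCODE M21 (GRCm38, which mm10 also uses), and promoters from RefSeq. Implied length was the count divided by the TPM, scaled on 12060 genes with over 200 counts. The procedure was tested on simulated counts. DESeq2 1.42.0 and limma 3.58.1, other scalings and filters, a replicate block and each library left out were alternatives, and centring by length in 40 bins was added after the data were seen. Precision was limited by the spread between libraries as well as by counting error. *Atp5b*, with 120162 to 132116 counts in each library, still had an SE of 0.13.

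The members, gene lists and motifs were chosen with earlier results of these data known. Named genes were, by rule, those past an unadjusted p of 0.05, paralog groups, catalytic or core members, the 5 highest and 5 lowest by TPM, the extremes of each complex, the genes past that p (up to 5) and the extremes of each other list, and *Sirt6*. *Atp5d*, *Atp5e*, *Cox7c*, *Atp5k*, *Atp5l*, *Ndufb3*, *Ndufb5*, *Ndufb6*, *Ndufb7*, *Ndufa13*, *Uqcrq* and the assembly factors were added after their values were seen. Of the genes this rule names, 1 is not reported here; it is kept in counts, sums and medians.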

Additional observations from a re-analysis of the deposited data

How the results depend on the processing

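No fit left any of the 86 genes past an adjusted p of 0.05. At an unadjusted p of 0.05 the number of lower genes was 0 in the reported fit, 2 with DESeq2, 1 with the authors' filter of TPM over 0.1, 3 with upper quartile normalization, 4 with library size alone and 6 with limma at each pseudocount, 1 or 0.1. Upper quartile normalization moved the median log2 fold change to -0.25 for all 86 genes, -0.41 for complex I, -0.26 for complex III, -0.15 for complex IV, -0.21 for other respiratory chain genes, -0.21 for assembly factors, -0.0743 for the tricarboxylic acid cycle and 0.00626 for glycolysis. Library size alone moved them, in that order, to -0.26, -0.42, -0.26, -0.16, -0.23, -0.20, -0.0837 and -0.00546. It left 47 genes lower and 4 higher without overlap, and the share of all genes without overlap under it is not given. It also put the fold changes of 56.7% of all genes tested below 0, so these counts cannot be set against those of the reported fit. Centring on genes of similar length, chosen after seeing the data, gave -0.0171 for all 86 genes, -0.14 for complex I, -0.0338 for complex III, 0.15 for complex IV, 0.0319 for complex V, -0.0128 for other respiratory chain genes, -0.0609 for glycolysis and -0.0696 for the mitochondrial ribosome; by construction it removes what genes of a length have in common. As a share of raw counts the genes held 0.765% in WT and 0.688% in the cKO-labelled libraries.

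Some single genes near 0 changed sign. With upper quartile normalization and library size alone, *Sdha* went to -0.0316 and -0.0401, *Sdhc* went to -0.0592 and -0.0630, *Cox5b* went to -0.0173 and -0.0234, *Ndufa4* went to -0.0349 and -0.0425 and *Atp5g2* went to -0.0721 and -0.0785, and *Cox8a* went to -0.00710 with the latter. *Atp5g2* was at -0.00135 with DESeq2 and at -0.000593 and -0.000607 with limma at pseudocounts of 1 and 0.1, where *Cox6a2* was at 0.0145 and 0.0904. The cause was not tested.

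With 1 library left out, the lone library of its group is assumed to vary like the others. The number of lower genes at an unadjusted p of 0.05 was between 0 and 2, and the number without overlap between 43 and 56 for lower and 11 and 18 for higher genes, where between 31.0% and 37.8% of all genes were lower and between 33.8% and 36.8% higher. Medians lay between -0.26 and -0.17 for all 86 genes, -0.34 and -0.22 for complex I, -0.18 and 0.0285 for complex II, -0.22 and -0.13 for complex III, -0.19 and -0.0644 for complex IV, -0.19 and -0.0645 for complex V, -0.24 and -0.15 for other respiratory chain genes, -0.23 and -0.0619 for assembly factors, -0.0750 and 0.23 for biogenesis regulators, -0.0815 and -0.00200 for the tricarboxylic acid cycle, -0.000784 and 0.0872 for glycolysis, -0.19 and 0.16 for cytosolic ribosomal proteins and -0.37 and -0.16 for mitochondrial ribosomal proteins. Values that changed sign ranged from -2.50 to 0.0303 for *Ndufa1*, -0.48 to 0.52 for *Ndufaf2*, -0.0393 to 0.12 for *Sdha*, -0.13 to 0.15 for *Sdhc*, -0.29 to 0.0964 for *Sdhd*, -0.21 to 0.87 for *Uqcrh*, -0.37 to 0.62 for *Cox4i2*, -0.18 to 0.33 for *Cox5b*, -0.18 to 0.0377 for *Cox6a1*, -0.69 to 0.90 for *Cox6a2*, -0.32 to 0.0372 for *Cox7a2*, -0.27 to 0.0925 for *Cox7a2l*, -0.0869 to 0.25 for *Cox8a*, -0.19 to 0.30 for *Ndufa4*, -1.56 to 0.53 for *Ndufa4l2* and -0.16 to 0.15 for *Atp5g2*.

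The labels number the libraries of both groups 1 and 2, but nothing pairs equal numbers, and the deviations of libraries with the same number had a correlation of -0.0544. With the replicate number as a block, 0 of the 86 genes passed an unadjusted p of 0.05 in either direction and 0 an adjusted p, the median was -0.17 for all 86 genes and -0.33 for complex I, and *Cox6a2* went to 0.11. The block changed no call of the oxidative phosphorylation genes.

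With 2 libraries a group, differences inside the errors given were not detectable, and rare genes such as *Ndufa1* were measured on few counts.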
